A study of Mus musculus with 36 samples.

Results

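Type I interferon response genes are the genes that cells switch on when interferon alpha or beta reaches their surface. Interferon binds the Ifnar1 and Ifnar2 receptor, the kinases Jak1 and Tyk2 phosphorylate Stat2, and this joins Irf9 in a complex that binds interferon-stimulated response elements in promoters. The induced proteins sense foreign or self nucleic acid, block virus entry and release, modify proteins with the ubiquitin-like Isg15, and, through Irf7 and Stat2 itself, keep the response going. A list of 39 such genes was followed in embryonic mouse hearts, matched to the data by Ensembl identifier. Of these, 26 were measured in all 5 experiments, which share 13045 genes, and 37 in at least 1 experiment, among 14846 genes in all.

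Bulk RNA-seq was made from 36 libraries in 5 experiments, each comparing hearts in which a Notch ligand or the Notch target Efnb2 was altered in the endocardium or endothelium with their own WT hearts. The question was how the ligands Jag1 and Dll4 and their target shape the coronary vessels and the heart wall. Each experiment was deposited as its own table, normalised on its own, so mutants are compared only with the WT libraries of the same table.

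In Jag1flox;Nfatc1-Cre and in Dll4flox;Nfatc1-Cre, homozygous floxed Jag1 or Dll4 was deleted by a Cre that acts in the endocardium and the sinus venosus. Whole hearts were taken at E12.5, with 4 mutant and 4 WT libraries for Jag1, 2 mutant and 4 WT libraries for Dll4, and 4 embryos pooled per library. The study had made further Dll4flox;Nfatc1-Cre libraries and set 2 mutant samples aside because of their Dll4 level and their place in a principal component plot, so the low Dll4 of the kept mutants is in part a choice. In Dll4flox;Cdh5-CreERT2, homozygous floxed Dll4 was deleted in endothelium by a Cre that pregnant females received tamoxifen at E12.5 to activate, and ventricles were taken at E15.5 (mutants 2, 3 and 4, WT 1 to 4, 3 embryos per library). Whether the WT embryos of this experiment were exposed to tamoxifen is not given in the sources used here. In Dll4GOF;Tie2-Cre, 1 additional Dll4 copy, placed in the Rosa26 locus behind a removable stop, was switched on in endothelium, and E15.5 ventricles were taken (mutants 2, 3 and 4, WT 1 to 4, 3 embryos per library). In Efnb2flox;Nfatc1-Cre, homozygous floxed Efnb2 was deleted by the same Cre as in the E12.5 experiments, and E16.5 ventricles of single embryos were taken (mutants 1 to 4, WT 1, 2, 3 and 5).

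The libraries held 7827496 to 28464430 counts each, and no 2 of the 630 pairs of libraries held the same counts. The level of a gene is given as deposited, close to a count scaled for library depth and not divided by transcript length, so levels are compared between libraries and not between genes. In every experiment the mutant libraries lay beyond all WT libraries for the targeted gene, in the labelled direction. The targeted gene still missed a limma adjusted p under 0.05 in Dll4flox;Cdh5-CreERT2 (limma adjusted p = 0.0507), Efnb2flox;Nfatc1-Cre (0.297) and Dll4GOF;Tie2-Cre (0.354). Jag1 lay at 49.4% to 64.8% of its WT mean and Efnb2 at 65.6% to 71.5%. Dll4 lay at 10.03% and 8.51% of the WT mean in Dll4flox;Nfatc1-Cre, at 30.9%, 79.1% and 36.3% in mutants 2, 3 and 4 of Dll4flox;Cdh5-CreERT2, and at 116% to 129% in Dll4GOF;Tie2-Cre. The libraries are of whole hearts or ventricles, and fewer cells of a type cannot be told apart from less RNA per cell. Beyond the pooling given above, the labels do not say how replicates relate, so p-values measure the spread between these libraries.

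Promoter sequence was available from RefSeq (build GRCm38.p6) for 29 of the 39 genes, as windows of 300 bases with 250 before the transcript start. The letters searched were GAAA, any 2 bases and GAAA again, on both strands with overlapping matches allowed, which is the core of an interferon-stimulated response element. They were present in 14 of the 29 windows (48.3%), against 1079 of 27025 windows of all genes (3.99%). A match is a run of letters and not a measured binding site. The stretches below belong to the 2 genes that passed the test in both Dll4 deletions, Rsad2 and Bst2, and to Isg15 and Ifit3, which are widely used readouts of the response; capitals mark the matched letters.
Rsad2 (chr12:26456453-26456702, minus strand): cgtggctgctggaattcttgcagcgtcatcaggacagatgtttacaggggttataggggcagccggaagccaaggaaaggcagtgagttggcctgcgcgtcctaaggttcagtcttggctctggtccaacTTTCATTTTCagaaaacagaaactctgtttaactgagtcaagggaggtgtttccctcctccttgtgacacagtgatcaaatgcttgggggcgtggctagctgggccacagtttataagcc
Bst2 (chr8:71537557-71537632, minus strand): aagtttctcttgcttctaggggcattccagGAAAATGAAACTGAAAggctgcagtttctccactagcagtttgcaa
Isg15 (chr4:156200845-156200926, minus strand): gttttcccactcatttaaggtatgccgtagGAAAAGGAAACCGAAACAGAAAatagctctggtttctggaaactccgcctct
Ifit3 (chr19:34583343-34583446, plus strand): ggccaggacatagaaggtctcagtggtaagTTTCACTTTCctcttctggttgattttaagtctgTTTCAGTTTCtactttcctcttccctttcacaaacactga
For Rsad2 all 250 bases before the start are shown, and its single match begins 120 bases before it. The other stretches run from 30 bases before the first match to at most 30 after the last. The RefSeq start of Bst2, from which its window is counted, lies upstream of its start in the GENCODE annotation. Bst2 has 2 overlapping matches, Isg15 has 3 and Ifit3 has 2 that lie apart. Of the 13 members called in either Dll4 deletion, 11 have a window, and 8 of these have no match in it (Irf7, Irf9, Oasl2, Cmpk2, Samd9l, Xaf1, Ifi44 and Lgals3bp).

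Members rose in both Dll4 deletions, and no member was called in the other experiments. In Dll4flox;Cdh5-CreERT2, 10 of the 36 measured members rose and 0 fell, where 0.943% of all 13897 genes rose and 0.209% fell. In Dll4flox;Nfatc1-Cre, 5 of 34 rose and 0 fell, where 1.31% of 14302 genes rose and 0.86% fell. No member rose or fell in Jag1flox;Nfatc1-Cre (0 of 30), where 1.12% of genes rose and 0.637% fell. None did in Dll4GOF;Tie2-Cre (0 of 29, with 0% of all genes in either direction) or in Efnb2flox;Nfatc1-Cre (0 of 27, with 0.0296% of genes rising and 0% falling). In this last pair of experiments the targeted gene was not called either, so a lack of calls there says little. Each count is of genes with a limma adjusted p under 0.05, adjusted over all genes of the table. At an unadjusted limma p under 0.05 stood 26 members in Dll4flox;Cdh5-CreERT2 and 18 in Dll4flox;Nfatc1-Cre, each of them higher in mutants, where 8.18% and 10.6% of all genes were higher at that p. The same count in either direction was 2 in Jag1flox;Nfatc1-Cre (23.7% of all genes), 0 in Dll4GOF;Tie2-Cre (9.32%) and 1 in Efnb2flox;Nfatc1-Cre (6.34%). With DESeq2 in place of limma 1 member rose in Jag1flox;Nfatc1-Cre, where 651 of all genes rose, and 0 members in the last pair of experiments. With edgeR 0 members rose in all 3.

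Uncalled members lay above 0 as well in the Dll4 deletions. The log2 fold change was above 0 for 36 of 36 members in Dll4flox;Cdh5-CreERT2, with a median of 0.81, and for 32 of 34 in Dll4flox;Nfatc1-Cre, with a median of 0.54. It was above 0 for 22 of 30 members in Jag1flox;Nfatc1-Cre (median 0.06), 13 of 29 in Dll4GOF;Tie2-Cre (median -0.0088) and 11 of 27 in Efnb2flox;Nfatc1-Cre (median -0.025). These sets of members differ, and some may be measured in a Dll4 deletion only because mutants were high. Among the 26 genes measured in all experiments, the median was 0.61 in Dll4flox;Cdh5-CreERT2 and 0.49 in Dll4flox;Nfatc1-Cre. For the same genes it was 0.057 in Jag1flox;Nfatc1-Cre, -0.012 in Dll4GOF;Tie2-Cre and -0.018 in Efnb2flox;Nfatc1-Cre. Over all genes the share above 0 was between 49.5% and 50.9% in the 5 experiments, with medians of -0.0011 to 0.0041.

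**Figure D1:**
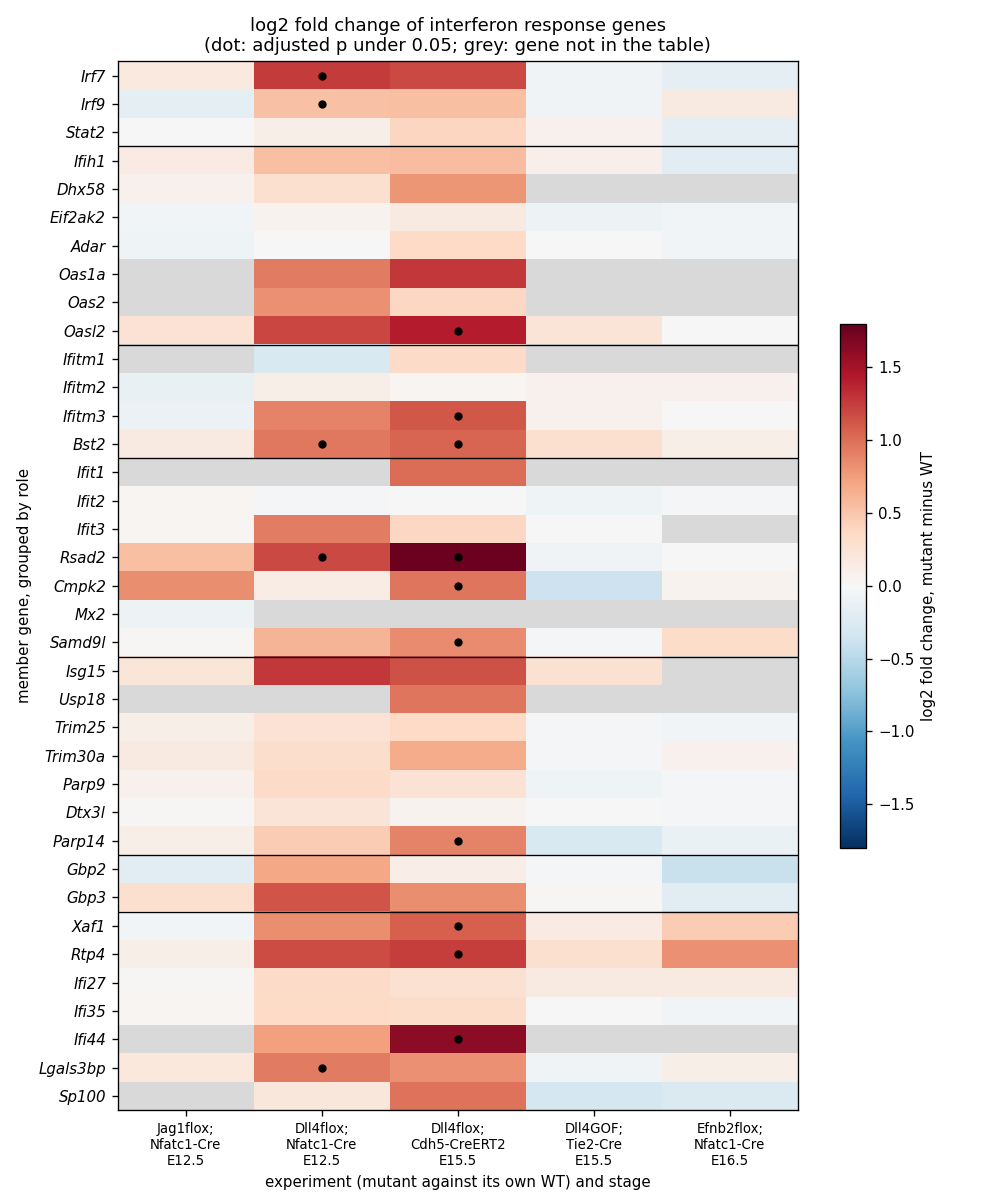
The heat map shows the log2 fold change of mutant over WT for the 37 measured members (rows, grouped by role) in each experiment (columns), with a dot where the limma adjusted p is under 0.05 and grey where the gene is not in the table. The columns of the Dll4 deletions carry all the dots, 5 at E12.5 and 10 at E15.5.

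A looser reading of the same data, which more genes meet, asks whether every mutant library lies above every WT library. In Dll4flox;Nfatc1-Cre this held for 21 of 34 members, where it held for 15.49% of all genes. In Dll4flox;Cdh5-CreERT2 it held for 19 of 36, where it held for 6.97% of all genes. It held for 0 of 30 members in Jag1flox;Nfatc1-Cre (6.77% of all genes), for 1 of 29 in Dll4GOF;Tie2-Cre (Stat2; 4.56% of all genes) and for 0 of 27 in Efnb2flox;Nfatc1-Cre (2.01% of all genes). Some of these members, such as Oas1a, Ifit3 and Ifit1, had WT levels under 1 and may be in a table only because mutants were high, so their separation is no support. Among the 26 genes measured in all experiments, mutants lay above WT for 17 in Dll4flox;Nfatc1-Cre and 15 in Dll4flox;Cdh5-CreERT2, and 5 and 9 of the 26 rose. The Dll4 deletions share 12 of the members, 57.1% of the 21 and 63.2% of the 19. Called in both were Rsad2 and Bst2, which are 40% of the 5 and 20% of the 10. The same overlaps were not counted over all genes, so these shares have no value to be set against.

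The share of counts from mitochondrial genes was lower in the mutants of both Dll4 deletions, at 4.32% and 4.22% against 4.62% to 5.27% in WT at E12.5. At E15.5 it was 6.12%, 6.55% and 5.60% in mutants 2, 3 and 4, against 6.56% to 7.41% in WT, and its part in the result was not tested.

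The calls depend on single libraries and on the variance model. With no mean-variance trend in limma, 0 members passed in either Dll4 deletion. Of all genes, 47 then rose at E12.5 and 1 at E15.5, against 188 and 131 with the trend. In Dll4flox;Cdh5-CreERT2, 23 members passed without mutant 3, 0 without mutant 2, 0 without WT 3, and 3 to 5 without any other library. Counts over all genes moved too. Of all genes there, 421 rose without mutant 3, 2 without mutant 2, 6 without WT 3, and 41 to 87 without any other library. In Dll4flox;Nfatc1-Cre, 3 members passed without WT 3, where 132 of all genes rose. Without WT 1, 2 or 4, 0 passed, where 63, 30 and 28 of all genes rose. Leaving out a mutant there leaves 1 mutant library, too few for a count. The mean log2 level over genes measured in all experiments then lay 0.350 above WT without mutant 1 and 0.777 without mutant 2. With both mutants this mean lay 0.56 above WT.

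The mean of log2 levels over the 26 genes measured everywhere gives 1 value per library. In Dll4flox;Cdh5-CreERT2 it was 4.03, 3.68 and 4.28 in mutants 2, 3 and 4, against 3.44, 3.26, 3.37 and 3.26 in WT. In Dll4flox;Nfatc1-Cre it was 3.55 and 3.12 in mutants, against 2.77, 2.87, 2.86 and 2.60 in WT. The groups do not overlap in either, and the differences were 0.67 and 0.56 on the log2 scale. In Jag1flox;Nfatc1-Cre the mean was 2.88, 3.03, 2.85 and 2.67 in mutants, against 2.80, 2.76, 2.76 and 2.74 in WT, a difference of 0.10. In Dll4GOF;Tie2-Cre it was 3.44, 3.27 and 2.95 in mutants, against 3.23, 3.34, 3.21 and 3.06 in WT, a difference of 0.01. In Efnb2flox;Nfatc1-Cre it was 2.94, 3.49, 3.08 and 3.09 in mutants, against 3.00, 3.18, 3.16 and 3.13 in WT, a difference of 0.03. In these 3 experiments the groups overlap.

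**Figure D2:**
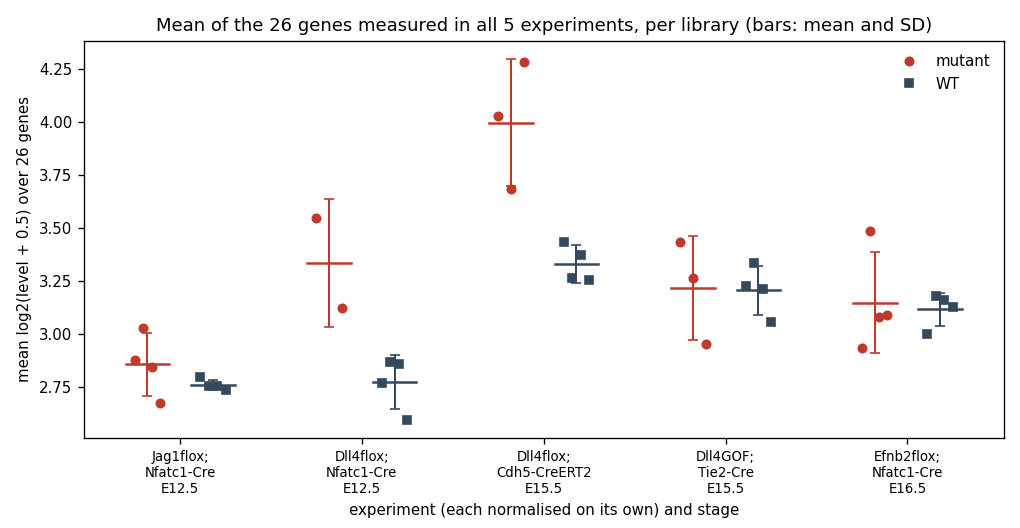
Points give the mean log2(level + 0.5) over the 26 genes in each library, mutants left of WT within each experiment, with the group mean and SD as bars. Mutant libraries of the Dll4 deletions lie above their WT libraries (at least 3.12 against at most 2.87 at E12.5, and at least 3.68 against at most 3.44 at E15.5), and the other experiments overlap.

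Among the signalling factors, Irf7, the factor that amplifies interferon production, had levels of 3.39 and 2.94 in Dll4flox;Nfatc1-Cre mutants, against 1.11, 1.30, 1.11 and 0.697 in WT. For Dll4flox;Cdh5-CreERT2 the levels were 5.29, 3.26 and 10.8 in mutants 2, 3 and 4, against 2.33, 2.44, 2.94 and 1.49 in WT. The groups do not overlap in either, and mutant 4 of the later experiment stands highest. Irf7 rose at E12.5 (log2 fold change 1.25 ± 0.23, SE; limma adjusted p = 0.0376). At E15.5 the mutants' spread was wider and the gene did not pass (1.19 ± 0.32; limma adjusted p = 0.116).

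Irf9, the DNA-binding partner of Stat2, had 20.2 and 18.9 in Dll4flox;Nfatc1-Cre mutants, against 12.3, 13.1, 15.1 and 13.1 in WT. For Dll4flox;Cdh5-CreERT2 the levels were 22.9, 17.4 and 26.7 in mutants, against 14.2, 14.0, 15.2 and 16.1 in WT. Both mutant groups lie above their WT group. Irf9 rose at E12.5 (0.53 ± 0.10; limma adjusted p = 0.0423) and missed the threshold at E15.5 (0.55 ± 0.13; limma adjusted p = 0.0759).

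Stat2 had 21.4 and 20.9 in Dll4flox;Nfatc1-Cre mutants, against 19.7, 18.4, 22.1 and 18.4 in WT, and the groups overlap. In Dll4flox;Cdh5-CreERT2 it had 26.1, 23.7 and 28.5 in mutants, against 19.7, 19.5, 19.9 and 19.9 in WT. Here the groups lie apart, and the difference stood just outside the threshold (0.39 ± 0.09; limma adjusted p = 0.0556).

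Of the nucleic acid sensors and 2′-5′ oligoadenylate synthetase relatives, 7 of the 8 listed were measured in each Dll4 deletion. Oasl2, of the synthetase family, had 13.4, 9.16 and 20.6 in Dll4flox;Cdh5-CreERT2 mutants, against 6.26, 4.74, 5.76 and 3.11 in WT. In Dll4flox;Nfatc1-Cre it had 9.77 and 5.48 in mutants, against 2.40, 3.34, 3.90 and 2.22 in WT. The mutants lie above WT in both. Oasl2 rose at E15.5 (1.41 ± 0.26; limma adjusted p = 0.0276) and not at E12.5 (1.205 ± 0.27; limma adjusted p = 0.0601).

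The other sensors gave no call in either Dll4 deletion. Oas1a, a synthetase that feeds the RNA-degrading RNase L, had 3.06, 1.29 and 4.59 in Dll4flox;Cdh5-CreERT2 mutants, against 1.45, 0.335, 1.07 and 0.677 in WT, and mutant 3 lies below WT 1. Its level was 2.07 and 1.2 in Dll4flox;Nfatc1-Cre mutants, against 0.351, 0.614, 0.814 and 0.652 in WT. Reads of Oas1a can be shared with its near-identical neighbours, so its level is uncertain. The log2 fold changes of the 7 sensors ranged over 0.16 to 1.41 at E15.5 and 0.013 to 1.205 at E12.5. Ifih1 (MDA5, a receptor for long double-stranded RNA) and Oas2 had mutants above WT at E12.5 and overlapping groups at E15.5, and Dhx58 (LGP2, a regulator of such receptors) overlapped in both. Smallest were Eif2ak2 (PKR, the kinase that stops translation on double-stranded RNA) at E15.5 and Adar (the RNA-editing deaminase) at E12.5.

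Bst2 (tetherin, which holds budding virus on the cell surface) and Ifitm3 (which blocks virus entry in endosomes) were called, and Ifitm2 was not. Bst2 had 27.5, 19.98 and 35.0 in Dll4flox;Cdh5-CreERT2 mutants, against 17.4, 10.5, 11.7 and 12.3 in WT. It had 16.2 and 10.9 in Dll4flox;Nfatc1-Cre mutants, against 6.29, 6.71, 7.75 and 5.95 in WT. The groups lie apart in both, and mutant 3 at E15.5 lies nearest WT 1. Bst2 rose by 1.04 ± 0.19 at E15.5 (limma adjusted p = 0.0259) and by 0.95 ± 0.17 at E12.5 (limma adjusted p = 0.0376), log2.

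Ifitm3 had 41.5, 29.9 and 49.7 in Dll4flox;Cdh5-CreERT2 mutants, against 23.5, 16.9, 17.3 and 15.2 in WT. It had 22.5 and 14.7 in Dll4flox;Nfatc1-Cre mutants, against 9.69, 11.3, 11.6 and 6.63 in WT. Mutants lie above WT in both, and the gene rose at E15.5 (1.11 ± 0.17; limma adjusted p = 0.0166) and not at E12.5 (0.89 ± 0.24; limma adjusted p = 0.0907). Its neighbour Ifitm2 had 71.2, 74.0 and 68.6 in the E15.5 mutants, against 73.0, 65.5, 73.6 and 65.7 in WT (0.04 ± 0.07), and these overlap. The Ifitm genes resemble each other in sequence, and counts could be split among them. Ifitm1 was at low levels in both tables, 1.06 to 1.99 in mutants against 0.677 to 1.41 in WT at E15.5, and did not pass. At E12.5 it had 1.25 and 0.635 in mutants, against 0.731 to 2.71 in WT. Its log2 fold change of -0.28 was the lowest of the members measured there.

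Among the effectors, Rsad2 (viperin, which makes a chain-terminating nucleotide from CTP) had 13.8, 8.55 and 19.9 in Dll4flox;Cdh5-CreERT2 mutants, against 4.5, 4.07, 3.11 and 2.84 in WT. It had 12.05 and 6.19 in Dll4flox;Nfatc1-Cre mutants, against 3.43, 3.48, 4.11 and 3.08 in WT. The lowest mutant lies above the highest WT library in both. Rsad2 rose by 1.76 ± 0.24 at E15.5 (limma adjusted p = 0.0157), with a mutant mean 3.88-fold the WT mean, and by 1.19 ± 0.24 at E12.5 (limma adjusted p = 0.0461).

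Cmpk2, a mitochondrial nucleotide kinase whose gene (chr12:26469204-26479837) lies beside Rsad2 (chr12:26442746-26456452) on the opposite strand, was called in 1 of the Dll4 deletions. It had 14.3, 8.91 and 15.6 in Dll4flox;Cdh5-CreERT2 mutants, against 6.53, 5.80, 6.27 and 6.18 in WT, and rose (0.97 ± 0.17; limma adjusted p = 0.024). It had 6.67 and 4.07 in Dll4flox;Nfatc1-Cre mutants, against 3.16, 5.25, 8.71 and 3.30 in WT, where WT 3 was highest (0.14 ± 0.37; limma adjusted p = 0.87). The difference between these effects was 0.83, with a 95% interval of -0.05 to 1.72, and did not pass (limma adjusted p = 0.42).

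Samd9l, a growth-restraining antiviral factor, had 20.5, 15.1 and 16.8 in Dll4flox;Cdh5-CreERT2 mutants, against 9.57, 9.25, 7.64 and 11.3 in WT, and rose (0.85 ± 0.14; limma adjusted p = 0.0213). It had 6.67 and 6.14 in Dll4flox;Nfatc1-Cre mutants, against 4.18, 5.62, 3.78 and 2.90 in WT (0.61 ± 0.22; limma adjusted p = 0.164). Mutants lie above WT in both, by a narrow margin at E12.5.

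The Ifit genes, whose proteins bind viral RNA ends, lie side by side on chromosome 19 and had unlike values, with no call. Ifit1 was measured in Dll4flox;Cdh5-CreERT2 alone, at 1.51, 1.17 and 3.02 in mutants, against 0.7105, 0.527, 0.811 and 0.497 in WT (1.01 ± 0.29; limma adjusted p = 0.134). Ifit3 had 1.57 and 1.25 in Dll4flox;Nfatc1-Cre mutants, against 0.459, 0.7504, 0.522 and 0.337 in WT (0.92 ± 0.26; limma adjusted p = 0.1). Neither passed, though the groups lie apart. At E15.5 Ifit3 overlapped, with 1.603, 0.676 and 2.86 in mutants, against 1.45, 0.815, 1.32 and 0.767 in WT (0.38 ± 0.34; limma adjusted p = 0.675). Ifit2 had 23.1, 23.5 and 22.2 in the E15.5 mutants, against 21.8, 23.3, 22.7 and 23.6 in WT (0.01 ± 0.08). Ifit1 and Ifit3 have near-identical copies in the mouse genome, and counts could be split among them.

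**Figure D3:**
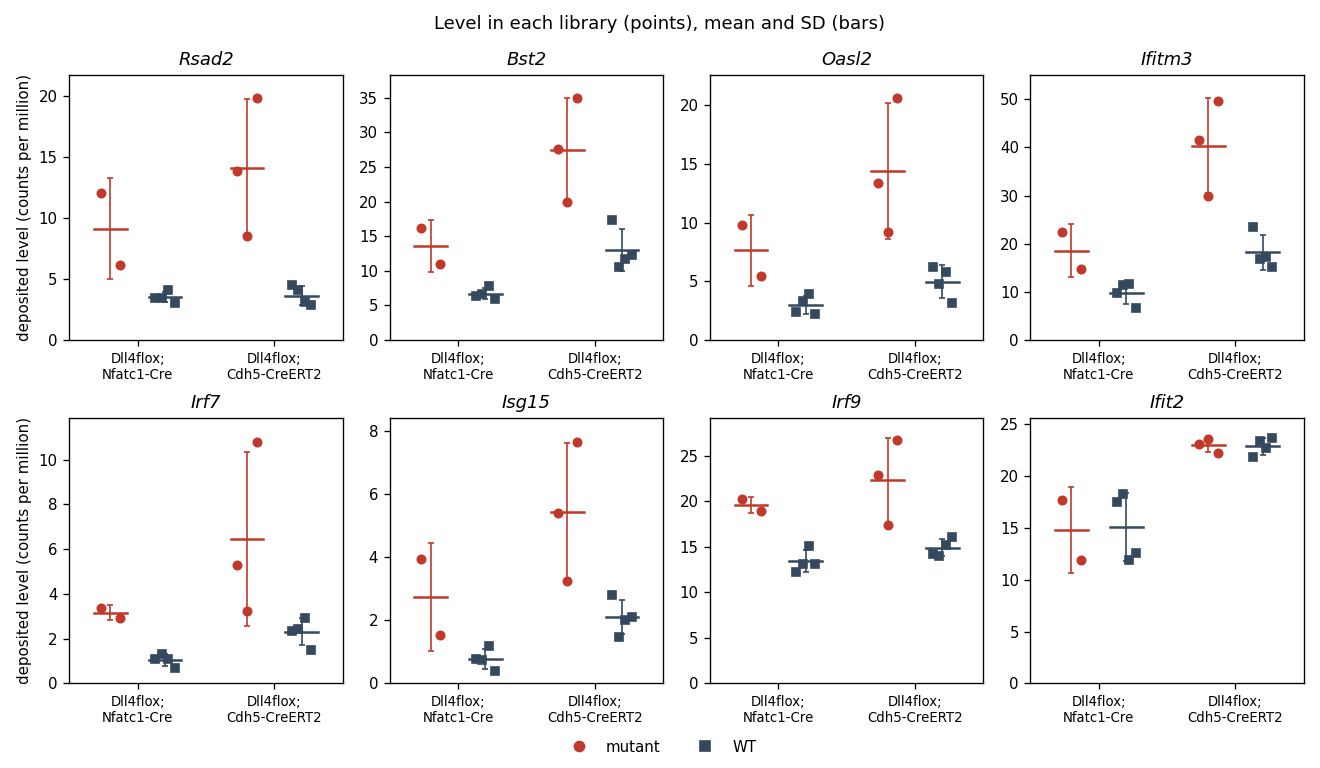
Points give the deposited level of 8 members in each library of the Dll4 deletions, mutants as circles left of WT squares, with group mean and SD. Rsad2, Bst2, Oasl2, Ifitm3, Irf7, Isg15 and Irf9 have their mutants above WT in both experiments, and Ifit2 overlaps in both.

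Isg15, the ubiquitin-like modifier that gives interferon-stimulated genes their name, had 5.39, 3.26 and 7.64 in Dll4flox;Cdh5-CreERT2 mutants, against 2.81, 1.49, 2.01 and 2.12 in WT. It had 3.94 and 1.53 in Dll4flox;Nfatc1-Cre mutants, against 0.783, 0.7504, 1.19 and 0.382 in WT. Mutants lie above WT in both. It passed in neither (1.14 ± 0.26 and 1.27 ± 0.37; limma adjusted p = 0.0639 and 0.106), with mutant 2 at E12.5 close to the highest WT.

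Usp18, the protease that removes Isg15 and restrains the receptor, was measured in Dll4flox;Cdh5-CreERT2 alone. It had 2.77, 1.91 and 4.12 in mutants, against 1.93, 1.29, 0.981 and 0.767 in WT, so that mutant 3 lies just below WT 1 (0.97 ± 0.28; limma adjusted p = 0.141). Parp14, an ADP-ribosyltransferase, had 13.6, 11.5 and 17.2 in the same mutants, against 7.54, 8.003, 6.19 and 7.63 in WT. Its groups lie apart and it rose (0.89 ± 0.15; limma adjusted p = 0.0187). Its neighbours on chromosome 16, Parp9 and Dtx3l, which form a complex with each other, had log2 fold changes of 0.25 and 0.07 and were not called. The ubiquitin ligases Trim25 and Trim30a had log2 fold changes of 0.36 and 0.67, with overlapping groups and no call. In Dll4flox;Nfatc1-Cre the 6 measured genes of this group had log2 fold changes of 0.23 to 1.27 and none passed.

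The guanylate-binding proteins Gbp2 and Gbp3, which attack the membranes around intracellular microbes, gave no call. Gbp3 had 6.17, 3.87 and 10.9 in Dll4flox;Cdh5-CreERT2 mutants, against 3.82, 3.31, 3.46 and 3.02 in WT (0.83 ± 0.26; limma adjusted p = 0.164). It had 5.76 and 2.24 in Dll4flox;Nfatc1-Cre mutants, against 1.48, 1.57, 1.40 and 1.15 in WT (1.13 ± 0.31; limma adjusted p = 0.0964). Its groups lie apart in both, while those of Gbp2 overlap in both.

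Among the other induced genes, 3 of 7 rose in Dll4flox;Cdh5-CreERT2 (0.943% of all genes) and 1 of 7 in Dll4flox;Nfatc1-Cre (1.31% of all genes). Xaf1, a partner and antagonist of the apoptosis inhibitor XIAP, had 8.401, 6.58 and 8.74 in the E15.5 mutants, against 4.16, 2.92, 2.86 and 4.11 in WT, and rose (1.07 ± 0.18; limma adjusted p = 0.0179). Ifi44 had 4.42, 3.26 and 10.9 in these mutants, against 1.93, 1.39, 1.15 and 1.40 in WT, and rose (1.61 ± 0.32; limma adjusted p = 0.0384). Rtp4, a chaperone-like protein for receptors, had 9.18, 6.82 and 13.9, against 5.45, 2.35, 3.54 and 4.29 in WT, and rose (1.24 ± 0.26; limma adjusted p = 0.0475). In all 3 genes the E15.5 mutants lie above WT, and mutant 4 stands highest. None of the 3 was called at E12.5, where mutants lay above WT for Xaf1 and Rtp4. Ifi44 overlapped there, with 2.85 and 0.965 in mutants, against 0.523 to 1.40 in WT.

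Lgals3bp, a secreted galectin-binding glycoprotein, rose at E12.5. It had 9.95 and 8.07 in Dll4flox;Nfatc1-Cre mutants, against 4.401, 4.16, 5.91 and 3.66 in WT (0.93 ± 0.19; limma adjusted p = 0.0472). In Dll4flox;Cdh5-CreERT2 it had 18.02, 12.1 and 27.6 in mutants, against 9.71, 9.44, 11.6 and 9.80 in WT (0.82 ± 0.21; limma adjusted p = 0.0965). The groups lie apart in both. The rest of this group, Ifi27, Ifi35 and Sp100, had log2 fold changes between 0.21 and 0.98 in the Dll4 deletions without a call, and Sp100 (a nuclear body protein) was the highest of them at E15.5.

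The mutant libraries of an experiment stood in much the same order for most members. In Dll4flox;Nfatc1-Cre, mutant 1 was higher than mutant 2 for 30 of 34 members, against 50.1% of all genes. In Dll4flox;Cdh5-CreERT2, mutant 4 was the highest mutant for 28 of 36 members (36.0% of all genes) and mutant 3 the lowest for 30 (34.9% of all genes). Mutant 3 is also the library with Dll4 nearest WT, at 79.1% of the WT mean, and the shallowest of the table, with 8262124 counts. Over WT, Rsad2 was 3.81-fold, 2.35-fold and 5.47-fold in mutants 2, 3 and 4 and Ifi44 was 3.01-fold, 2.22-fold and 7.45-fold. Samd9l stood in another order, at 2.17-fold, 1.59-fold and 1.78-fold. The part of Dll4 level and depth in this order was not tested. The member mean difference without mutant 3 was 0.82.

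Jag1flox;Nfatc1-Cre hearts of the same stage showed no member past the threshold. Cmpk2 came closest, with 9.54, 9.70, 9.23 and 3.79 in mutants, against 4.21, 4.02, 3.95 and 3.86 in WT (0.84 ± 0.24; limma adjusted p = 0.0752). Its neighbour Rsad2 had 4.71, 4.87, 4.18 and 1.78 in mutants, against 2.03, 1.57, 3.24 and 2.90 in WT (0.54 ± 0.28; limma adjusted p = 0.255). In both genes mutants 1 to 3 lie above WT, while mutant 4 lies below WT for Cmpk2 and within it for Rsad2. In Irf7 mutants 1 to 3 lie above WT and mutant 4 below it, with 2.02, 1.88, 1.93 and 0.821 in mutants, against 1.61, 1.052, 1.502 and 1.27 in WT (0.18 ± 0.22). The summed red cell markers split alike, at 37313, 29576 and 25658 in mutants 1 to 3 and 7421 in mutant 4, against 11067 to 14891 in WT, and their part in these values was not tested. Without mutant 4, 1 member passed, where 313 of all genes rose.

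The other members named above overlapped with WT in Jag1flox;Nfatc1-Cre. Irf9 had 9.30, 12.2, 12.6 and 11.1 in mutants, against 12.1, 14.3, 11.1 and 13.7 in WT. Stat2 had 17.9, 20.3, 19.5 and 17.8, against 18.8, 18.5, 19.9 and 18.1 in WT. Oasl2 had 2.65, 4.03, 3.18 and 2.99, against 3.54, 2.57, 1.87 and 2.57 in WT. The groups of these 3 overlap. Bst2 had 11.1, 10.6, 9.05 and 9.62 in mutants, against 8.48, 9.78, 7.54 and 10.3 in WT, and Ifitm3 had 11.7, 11.2, 8.75 and 9.78, against 10.7, 11.7, 10.96 and 11.4. Isg15 had 0.990, 1.802, 1.34 and 0.662, against 0.901, 1.02, 0.538 and 1.33, and Ifit3 had 1.46, 1.495, 0.801 and 0.874, against 1.82, 1.02, 0.983 and 0.705 in WT. Mx2, measured in this table alone, had 0.831, 1.34, 0.801 and 0.874, against 1.11, 1.09, 1.24 and 0.761 in WT. The log2 fold changes of these 8 genes lay between -0.18 and 0.26, and Ifitm2 was the only member with every mutant below every WT library (-0.13 ± 0.05; limma adjusted p = 0.172).

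In Dll4GOF;Tie2-Cre, where Dll4 was raised rather than deleted, the lowest limma adjusted p of any member was 0.573 (Bst2). Bst2 had 16.9, 13.6 and 11.7 in mutants, against 10.9, 14.0, 11.5 and 9.29 in WT. Rsad2 had 2.98, 2.64 and 2.07, against 2.81, 2.48, 3.47 and 2.05 in WT. The groups overlap in both. Irf7 had 1.45, 2.26 and 1.37 in mutants, against 1.58, 2.20, 1.90 and 1.42 in WT, and Irf9 had 18.7, 13.3 and 9.34, against 13.3, 16.54, 14.2 and 12.1. Stat2 had 19.4, 19.6 and 18.7 in mutants, against 18.3, 18.1, 18.2 and 18.2 in WT, and its groups lie narrowly apart (0.08 ± 0.06). Oasl2 had 5.64, 3.44 and 3.26, against 3.56, 3.60, 4.00 and 2.36, and Ifitm3 had 18.7, 14.8 and 13.3, against 14.5, 17.9, 16.1 and 10.7 in WT. Isg15 had 1.28, 1.41 and 0.673, against 0.776, 1.29, 0.730 and 0.535, and Ifit3 had 1.049, 0.879 and 0.872, against 1.04, 1.22, 1.02 and 0.535 in WT. Mutant 4 was the lowest mutant for 25 of 29 members, against 34.5% of all genes.

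In Efnb2flox;Nfatc1-Cre the smallest p belonged to Rtp4, with 1.06, 5.41, 2.54 and 2.87 in mutants, against 0.8294, 1.02, 1.79 and 1.59 in WT (0.82 ± 0.35; limma adjusted p = 0.768). Mutant 2, a single embryo, was the highest mutant for 22 of 27 members, against 26.9% of all genes. Its summed macrophage markers stood at 146, with 90.5 to 108 in the other mutants, against 95.4 to 123 in WT, and their part was not tested. Rsad2 had 2.63, 6.84, 2.65 and 1.65 in mutants, against 2.23, 3.50, 3.42 and 3.23 in WT, with mutant 2 above and mutant 4 below every WT library. Irf7 had 1.17, 2.20, 1.75 and 1.16, against 1.59, 1.24, 2.81 and 1.79, and Irf9 had 9.11, 16.47, 12.6 and 11.5, against 11.3, 12.01, 10.3 and 9.996 in WT. Stat2 had 17.4, 17.8, 15.4 and 14.7, against 19.1, 17.5, 19.1 and 17.5, and Oasl2 had 2.52, 6.24, 2.99 and 3.85, against 4.402, 5.55, 3.21 and 2.20 in WT. Every one of these groups overlaps. Bst2 had 7.32, 13.5, 9.64 and 10.3 in mutants, against 7.34, 10.7, 8.42 and 10.9 in WT, and Ifitm3 had 13.0, 19.1, 14.0 and 16.6, against 11.7, 16.2, 16.7 and 18.4. Ifit3 and Isg15 are not in this table.

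Whether the effects differ between experiments was tested directly, gene by gene, as the difference of log2 fold changes in 1 limma fit per pair. Between Dll4flox;Cdh5-CreERT2 and Dll4GOF;Tie2-Cre, both E15.5 ventricles, 1 of 29 members differed, where 0.324% of all genes did. That member was Rsad2, with a difference of 1.82 (95% interval 1.12 to 2.52; limma adjusted p = 0.0332). The call was lost with no mean-variance trend (0 members) and with voom (0 members). Leaving out libraries 1 at a time gave 0 to 13 members. The 13 were without Dll4 deletion mutant 3, where 459 of 13562 genes differed. The call was also lost (0 members) without Dll4 deletion mutant 2 or 4, its WT 2, 3 or 4, any 1 gain-of-function mutant, or WT 1, 2 or 3 of the gain-of-function experiment. Next came Cmpk2, with a difference of 1.34 (0.70 to 1.98; limma adjusted p = 0.0708). An unadjusted limma p under 0.05 was reached by 17 of the 29 members, against 11.9% of all genes.

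Between Dll4flox;Nfatc1-Cre and Jag1flox;Nfatc1-Cre, both E12.5 whole hearts, 0 of 29 members differed by limma, where 0.0145% of all genes did, and 12 had an unadjusted p under 0.05, against 16.49% of all genes (0 called with voom also). Irf9 had a difference of 0.71 (95% interval 0.36 to 1.06) and Ifitm3 one of 0.9986 (0.46 to 1.53), each with a limma adjusted p = 0.137. Between the Dll4 deletions, 0 of 34 members differed by limma, where 0.288% of all genes did, and 3 had an unadjusted p under 0.05, against 12.9% of all genes (0 called with voom). The Dll4 deletions differ in stage, tissue, Cre and timing of deletion, which cannot be told apart.

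**Figure D4:**
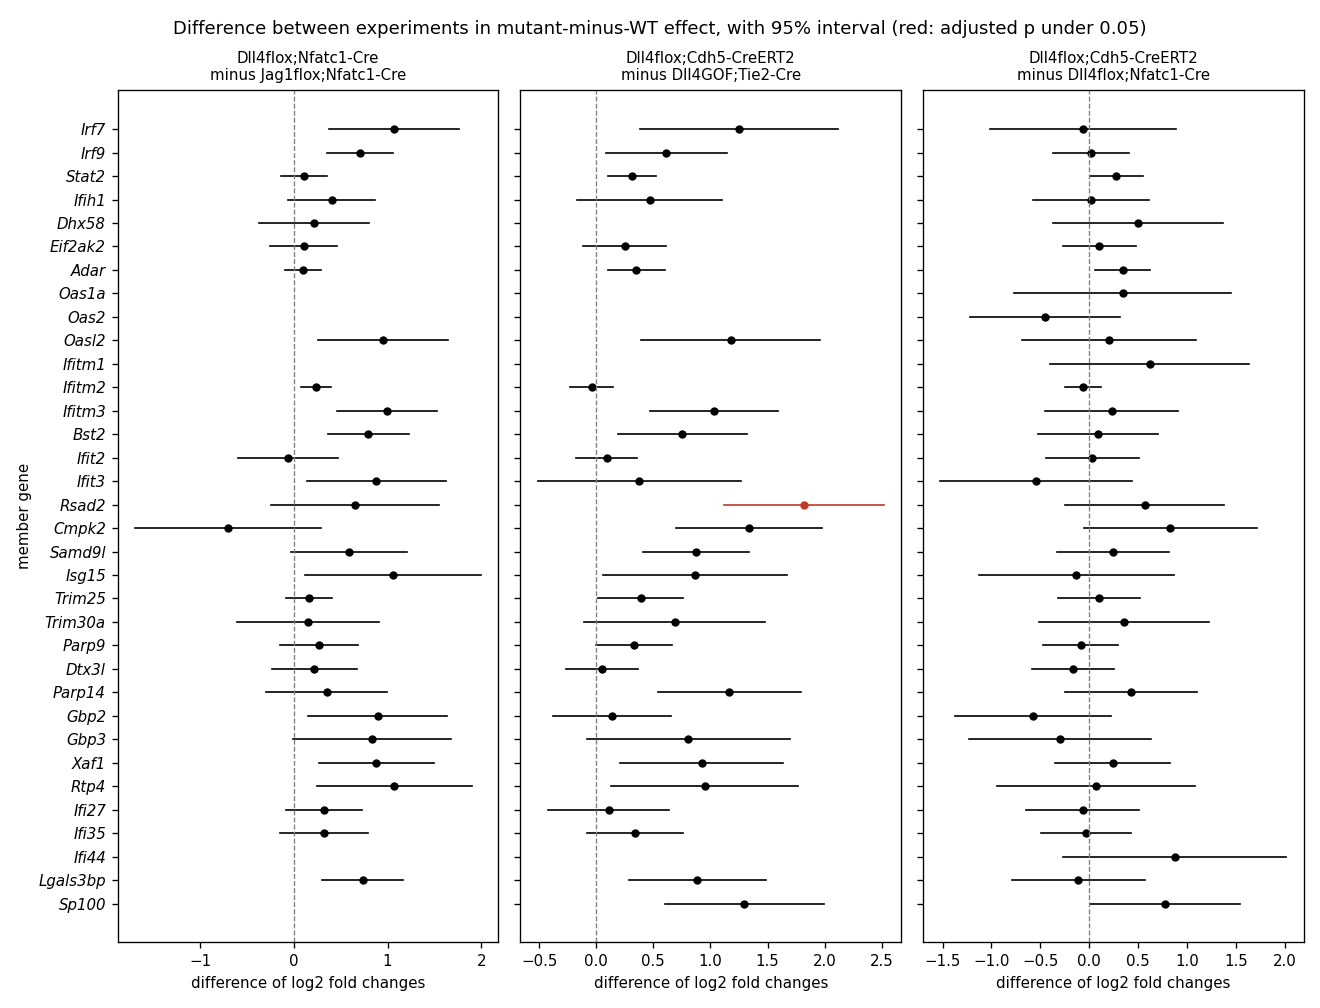
Each point is a member's difference of log2 fold changes between the experiments named above the panel, with its 95% interval as a line and red where the limma adjusted p is under 0.05. Rsad2 in the middle panel, at 1.82, is the only red point.

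The rest of the pathway was read from further lists. None of the 13 type I interferon ligand genes and none of 3 other interferon ligands was in any of the tables, which the study had filtered for expressed genes. Of 21 measured sensing genes upstream of interferon, Irf8, a factor of myeloid cells, rose in Dll4flox;Cdh5-CreERT2 (0.47; limma adjusted p = 0.0402). Of 34 further interferon-induced genes measured there, Lgals9 (0.62) and Uba7, the Isg15-activating enzyme (0.56), rose, with limma adjusted p = 0.0403 and 0.0475. Of 11 interferon-gamma induced genes, the GTPase Irgm1 rose (0.66; limma adjusted p = 0.0396). Of all genes, 0.943% rose in Dll4flox;Cdh5-CreERT2. None of these lists had a call in the other 4 experiments. The median log2 fold change of the further induced genes was 0.37 in Dll4flox;Cdh5-CreERT2 and 0.14 in Dll4flox;Nfatc1-Cre, and between -0.023 and 0.0026 in the other 3.

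Markers of cell types were summed in the same libraries, and some sums lay apart from WT in the Dll4 deletions while others overlapped. In Dll4flox;Cdh5-CreERT2, where 0.943% of all genes rose, 4 of 12 endothelial markers did (Egfl7 0.59, Erg 0.50, Emcn 0.41 and Esam 0.41). Their sum was 1831, 1543 and 1916 in mutants 2, 3 and 4, against 1385 to 1454 in WT, in the same order of mutants as the member mean. The sum of 13 measured macrophage markers was 169, 140 and 185 in these mutants, against 117 to 145 in WT. The mutants stand in the same order here too, and none of the 13 passed. The sum of 3 of 8 neutrophil markers was 8.498, 4.98 and 5.61, against 1.49 to 4.77 in WT. The sum of 10 measured red cell markers was 4065, 7668 and 2388 in these mutants, against 5263 to 7783 in WT, so that mutants 2 and 4 lie below every WT library, and of these genes Slc4a1 alone passed, upward (0.75). Epicardial sums overlapped, at 192, 206 and 161 in mutants against 173 to 226 in WT. Krt19 (0.77) and Wt1 (0.51) rose, while the median log2 fold change of the 8 epicardial markers was -0.32. The part of these markers in the result was not tested. In Dll4flox;Nfatc1-Cre, 0 of 12 endothelial markers passed, with sums of 1415 and 1401 in mutants against 1342 to 1427 in WT, and these overlap. Macrophage sums were 172 and 149 in those mutants, against 139 to 160 in WT. Neutrophil sums were 8.88 and 6.73 from 4 of 8 genes, against 1.71 to 4.10 in WT, and their part was not tested. In both Dll4 deletions the neutrophil markers had low WT levels. They may have been kept as expressed only because mutants were high, so their separation is no support. Of the epicardial markers Wt1 rose there (0.57; limma adjusted p = 0.0353). None of the 10 lymphoid and plasmacytoid markers was in any table.

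**Figure D5:**
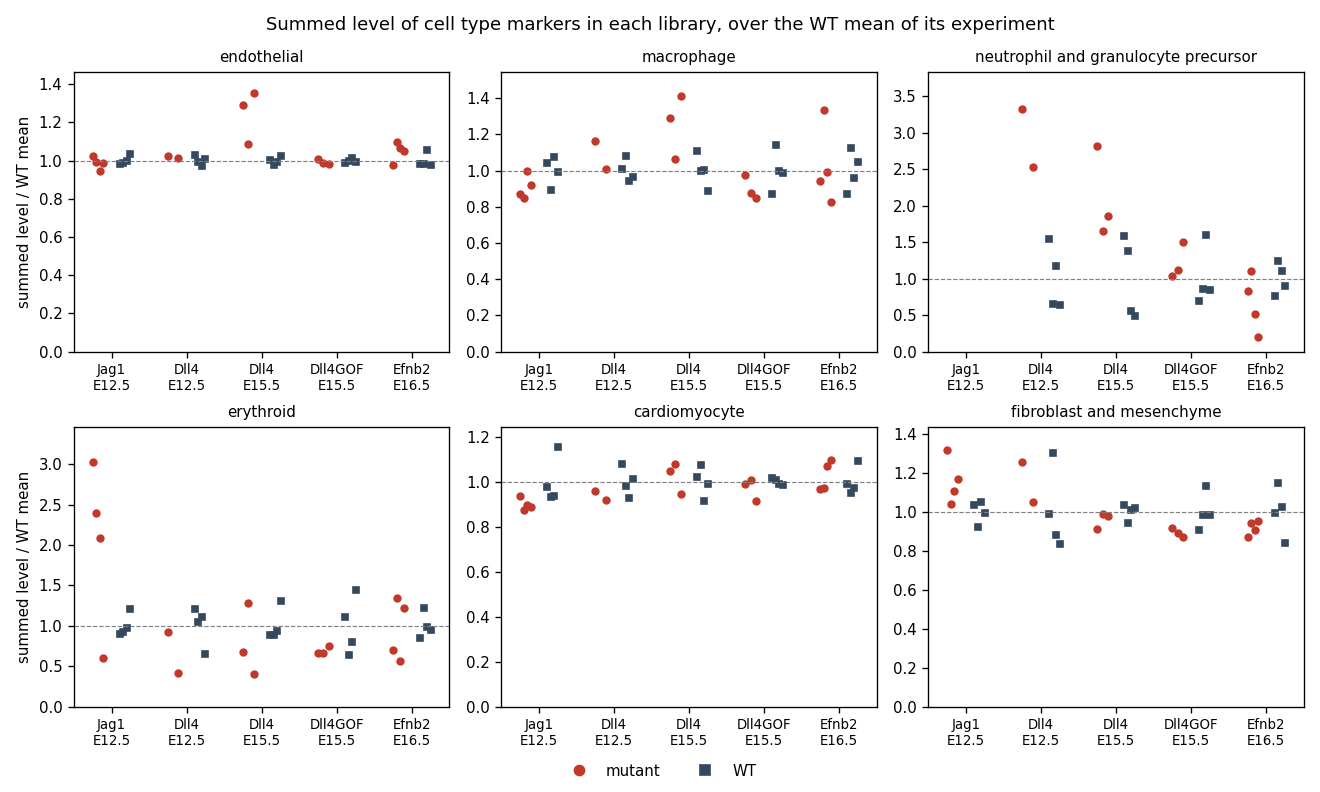
Each point is the summed level of a marker list in 1 library, divided by the WT mean of its experiment, mutants left of WT; no neutrophil marker is in the Jag1 table. Endothelial sums lie above WT in the E15.5 Dll4 deletion (1543 to 1916 against 1385 to 1454 before division) and overlap WT in the E12.5 Dll4 deletion. Neutrophil sums lie above WT in both, but their few genes are low and may be measured only because mutants were high.

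The listed genes Zbp1 and Mx1 were in no table. Oas1a, Oas2, Ifitm1 and Ifi44 were measured only in the Dll4 deletions, and Ifit1 and Usp18 only in Dll4flox;Cdh5-CreERT2. A table holds the genes that the study kept as expressed in that experiment, so a member that passes only because it is high in mutants is more likely to be in it, and counts cover measured members alone.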

How the data were processed

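RNA was extracted from whole hearts (E12.5) or ventricles (E15.5 and E16.5) and sequenced from poly(A) libraries. According to the labels and the study's methods, the authors ran CASAVA 1.8.2 and FastQC, trimmed reads with cutadapt 1.6, estimated counts with RSEM against the GRCm38 transcriptome (1.2.3 in the labels, another version in the methods) and normalised with limma. The deposited values are a signal per gene, a count divided by a scaled library size, and whole counts were recovered from 100% of values within 0.01. RSEM shares reads among similar transcripts, so near-identical genes are uncertain.

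Each table was fitted with limma 3.58.1 in R 4.3.3 (lmFit, then eBayes with a mean-variance trend) on log2(value + 0.5). A filter at a value of 1, required in 2 to 4 libraries by the size of the smaller group, removed 0 genes. Fold changes of low genes are understated on this scale. Calls are at a Benjamini-Hochberg adjusted p under 0.05 over all genes of the table; errors are SE, and intervals are 95%. Alternatives were other limma settings, leaving out each library, and, with the recovered counts, voom, DESeq2 1.42.0 and edgeR 4.0.16. The fits were tested on simulated data.

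The members and lists were chosen with earlier results of these data known. Genes with values in every library were 11 fixed members of the pathway where measured (Irf7, Ifit1, Ifit3, Isg15, Rsad2, Oasl2, Bst2, Ifitm3, Usp18, Stat2 and Irf9) and the called members, at most the 8 with the smallest p per experiment. Further members (Ifi44, Rtp4, Ifit2, Ifitm1, Ifitm2, Gbp3, Oas1a and Mx2, and Cmpk2, Samd9l and Lgals3bp outside the experiment of their call) were added after their values were seen. A list of receptors, kinases and brakes of the pathway is not reported here.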

Additional observations from a re-analysis of the deposited data

Results flagged for a closer look

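In Jag1flox;Nfatc1-Cre, Irf7 in mutant 4 stood far from the other mutants, at 0.821 where they lay between 1.88 and 2.02. It was the only 1 of 75 groups of values of the named genes with a library this far out, and chance gives about 1 in 20. The effect on Rsad2 differed between Dll4flox;Cdh5-CreERT2 and Dll4GOF;Tie2-Cre by 1.82 on the log2 scale.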

How the results depend on the processing

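Depth limits the low members (Ifit1, Ifit3, Isg15, Usp18), and 2 to 4 libraries per group limit the rest. The count of members that rose in Dll4flox;Nfatc1-Cre was 5, and became 0 with no mean-variance trend, 3 with quantile normalisation, 2 among the upper 75% of genes by mean, 10 with DESeq2 and 1 with library quality weights. Over all genes 188 rose there, and in the same order of settings 47, 184, 180, 471 and 112. In Dll4flox;Cdh5-CreERT2 the count of members was 10, and became 0 with no trend, 18 with DESeq2 and 19 with quality weights. Over all genes 131 rose there, and in the same order of settings 1, 271 and 512. In Jag1flox;Nfatc1-Cre the count of members became 1 with DESeq2, where 651 of all genes rose. For the difference between Dll4flox;Cdh5-CreERT2 and Dll4GOF;Tie2-Cre, the count of 1 became 0 with no trend and 0 with voom. Leaving out 1 library at a time gave 0 to 1 members that rose in Jag1flox;Nfatc1-Cre, 0 to 3 in Dll4flox;Nfatc1-Cre and 0 to 23 in Dll4flox;Cdh5-CreERT2, 0 to 0 in the other experiments, and 0 to 0 that fell in any. It gave 0 to 13 members for the difference just named and 0 to 0 for the other differences. Member mean differences then ranged over 0.0385 to 0.158 (Jag1flox;Nfatc1-Cre), 0.350 to 0.777 (Dll4flox;Nfatc1-Cre), 0.524 to 0.824 (Dll4flox;Cdh5-CreERT2), -0.0981 to 0.143 (Dll4GOF;Tie2-Cre) and -0.0818 to 0.102 (Efnb2flox;Nfatc1-Cre). The median over members in place of their mean gave 0.277 in Jag1flox;Nfatc1-Cre, and the log2 of summed levels gave 0.322 in Dll4flox;Nfatc1-Cre. The cause of these shifts was not tested.

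Deviations of same-numbered mutant and WT libraries had correlations of -0.13 to 0.23, with no experiment of 3 or more pairs above 0.1 throughout. The deviations of the 2 Dll4flox;Nfatc1-Cre mutants are mirror images by construction, so their pairs cannot tell. These correlations do not settle whether the numbers pair samples. With the replicate block, 0 members rose in Dll4flox;Nfatc1-Cre and 11 in Dll4flox;Cdh5-CreERT2, where 22 and 135 of all genes rose.

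Fold changes near 0 that were never called changed sign. Stat2 in Jag1flox;Nfatc1-Cre became -0.02295 (quantile), -0.0002718 (median ratio), -0.004451 (voom), -0.0013 (DESeq2) and -0.0248 (quality weights), and Ifit3 there -0.0061 (quantile), -0.0009446 (voom), -0.0321 (edgeR), -0.01495 (DESeq2) and -0.0275 (quality weights). In Dll4GOF;Tie2-Cre, Irf9 became 0.0594 (quality weights) and Ifit3 0.0432 (quantile), 0.000731 (median ratio), 0.0194 (voom) and 0.0365 (replicate block). In Efnb2flox;Nfatc1-Cre, Oasl2 became -0.211 (replicate block) and -0.06131 (quality weights), Ifitm3 0.0468 (replicate block), and Rsad2 0.0041 (pseudocount 1), 0.142 (edgeR), 0.148 (DESeq2) and 0.252 (replicate block).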

Other observations

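The WT libraries give the level of the members without a mutation. Of the 26 genes, 8 had all 8 WT libraries of the E15.5 tables above all 8 of the E12.5 tables and 0 the reverse, against 9.34% of all genes above and 16.6% below. These were Ifit2, Samd9l, Parp9, Dtx3l, Parp14, Gbp2, Xaf1 and Lgals3bp. Samd9l, for example, had a median of 9.38 (range 7.64 to 12.48) in the E15.5 WT, against 4.20 (2.90 to 5.62) in the E12.5 WT. Rsad2 did not differ by stage beyond its spread, with a median of 2.98 (2.05 to 4.5) in the E15.5 WT, against 3.16 (1.57 to 4.11) in the E12.5 WT. The tables were normalised separately, and E12.5 libraries are of whole hearts and E15.5 libraries of ventricles, so these levels are a description.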
